A study of Homo sapiens with 4 samples.

Results

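The genes described here are 10 enzymes that build, modify, activate and burn long-chain fatty acids. They are FASN, the elongases ELOVL5 and ELOVL6, the desaturases SCD, FADS1 and FADS2, the acyl-CoA synthetases ACSL1, ACSL3 and ACSL4, and the carnitine palmitoyltransferase CPT1A. They were chosen by symbol, 10 of the 57905 gene identifiers in the table, and 10 of 10 passed the expression filter.

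Polyadenylated RNA was sequenced from cells labelled MG63, a human osteosarcoma line, in 4 libraries. Control libraries came from cells given a control siRNA and the others from cells given an siRNA against KLF11, 2 libraries each, with 48 hours of culture after transfection. All were grown in DMEM with fetal bovine serum, and the labels name no other treatment, no siRNA sequence and no separate cultures, so the p-values measure a spread that may be technical. Values are FPKM, fragment counts scaled to gene length and library size, and are given in replicate order. No read counts were given, so the depth of each library is unknown.

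KLF11, the zinc finger factor that the siRNA targeted, was at 12.3 and 12.4 FPKM in the control libraries and at 5.49 and 6.74 FPKM in the KLF11 siRNA libraries (log2 change -0.92, adjusted p = 0.00951, limma). Some markers go against the osteosarcoma label and others do not, so values are given for the libraries labelled MG63, whatever their cells were. Over all tested genes 13.5% were called higher and 21.7% lower, and the marker calls stand beside these shares. Of 15 mesenchymal and osteoblast markers 8 passed the filter, with a summed level of 1258 to 1330 FPKM with control siRNA and 2001 to 2004 FPKM with KLF11 siRNA. VIM, from 144 and 131 FPKM to 808 and 799.9 FPKM, made up nearly the whole rise; PDGFRB was also higher, COL1A1 lower, and 5 were not called. Those not called were SPARC at 637 to 772 FPKM, FN1 at 181 to 234 FPKM, COL1A2 at 115 to 136 FPKM, ALPL at 79.3 to 106 FPKM and COL5A1 at 19.6 to 34.6 FPKM. The osteoblast regulators RUNX2 and SP7 reached at most 0.65 and 0.04 FPKM, and IBSP was listed at 0 in every library. All 10 pluripotency markers passed the filter, with summed levels of 1527 to 1538 FPKM with control siRNA and 2431 to 2902 FPKM with KLF11 siRNA. Of these 6 were higher, POU5F1 from 186 and 177 FPKM to 1364 and 1068 FPKM, and 2 lower, LIN28A and SALL4. All 10 endoderm markers passed the filter as well, with 5 lower, 2 higher (EOMES and MIXL1) and 3 not called. Their sum, 5356 to 5371 FPKM against 1583 and 3430 FPKM, was mostly CER1, at 4430.3 and 4406 FPKM against 958 and 2574 FPKM, which was not called (adjusted p = 0.0543). All 9 epithelial markers passed the filter, with 7 lower and 0 higher, at a sum of 2379 to 2576 FPKM against 1187 and 1431 FPKM. Of 8 hepatocyte and yolk sac markers 4 passed, with 3 lower (APOA1, APOA2 and HNF4A) and 1 higher (AFP). HNF4A and the epithelial marker CLDN3 averaged 0.305 and 0.925 FPKM with KLF11 siRNA and passed the filter through their control level alone. AFP and PDGFRB averaged 0 and 0.465 FPKM with control siRNA and passed through their KLF11 siRNA level alone. APOA2 went from 34.6 and 30.4 FPKM to 0 and 3.42 FPKM, and AFP from 0 and 0 FPKM to 4.41 and 1.11 FPKM. TTR and FGB were listed at 0 throughout, and no adipocyte or leukocyte marker exceeded 0.94 or 0.40 FPKM. In these bulk libraries fewer cells of a type and less RNA per cell cannot be told apart, and the part of these marker shifts in the results was not tested.

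Fatty acid synthase makes the saturated fatty acid palmitate from malonyl-CoA. Elongases of the endoplasmic reticulum lengthen fatty acids, SCD introduces the first double bond, and FADS1 and FADS2 desaturate the dietary polyunsaturated series. Acyl-CoA synthetases activate fatty acids for use, and CPT1 enzymes couple them to carnitine for entry into mitochondria, where beta-oxidation takes place. SREBP transcription factors are known to drive the synthesis and desaturation genes together with sterol genes, and PPARA to drive oxidation genes, mainly in liver.

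Promoter windows from RefSeq (GRCh38.p14), which run from 250 bases before to 50 bases after an annotated start, were matched by symbol to 9 of the 10 genes, all but FASN. The windows are shown for SCD and FADS2, the desaturases that rose, for CPT1A, with the largest fitted rise of the 10 genes, and for ACSL1, the gene that fell. Capitals mark CCAAT, bound by NF-Y, and the GC box GGGCGG, a motif of the SP and KLF families, on either strand. Windows are chr10:100346983-100347282 on the plus strand for SCD and chr11:61816154-61816453 on the plus strand for FADS2. Those for CPT1A and ACSL1 are chr11:68844228-68844527 and chr4:184825919-184826218, on the minus strand.
SCD: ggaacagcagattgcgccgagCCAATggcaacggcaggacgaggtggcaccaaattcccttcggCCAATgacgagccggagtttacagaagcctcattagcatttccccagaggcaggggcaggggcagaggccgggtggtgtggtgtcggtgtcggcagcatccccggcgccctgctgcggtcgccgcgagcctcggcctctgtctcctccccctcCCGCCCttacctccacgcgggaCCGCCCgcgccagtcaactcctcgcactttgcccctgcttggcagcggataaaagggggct
FADS2: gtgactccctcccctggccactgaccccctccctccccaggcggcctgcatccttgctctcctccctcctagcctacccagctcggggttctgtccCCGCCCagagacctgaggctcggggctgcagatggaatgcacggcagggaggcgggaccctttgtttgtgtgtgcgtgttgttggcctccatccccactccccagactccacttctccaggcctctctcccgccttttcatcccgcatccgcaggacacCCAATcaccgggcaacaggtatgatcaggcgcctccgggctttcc
CPT1A: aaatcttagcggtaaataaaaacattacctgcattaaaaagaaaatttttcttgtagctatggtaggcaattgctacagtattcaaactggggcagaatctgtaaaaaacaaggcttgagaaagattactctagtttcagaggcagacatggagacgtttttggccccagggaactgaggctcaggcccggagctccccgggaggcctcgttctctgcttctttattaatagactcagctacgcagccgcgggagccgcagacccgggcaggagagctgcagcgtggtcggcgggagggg
ACSL1: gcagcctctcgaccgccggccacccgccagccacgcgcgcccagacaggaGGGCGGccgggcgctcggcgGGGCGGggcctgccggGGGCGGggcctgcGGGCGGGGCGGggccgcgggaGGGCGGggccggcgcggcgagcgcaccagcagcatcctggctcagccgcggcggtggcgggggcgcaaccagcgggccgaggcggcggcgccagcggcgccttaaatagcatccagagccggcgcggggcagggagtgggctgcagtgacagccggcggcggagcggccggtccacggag

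The SCD window held 2 CCAAT and 2 GC box matches, and the FADS2 window held 1 of each. The ACSL1 window held 6 GC box matches and no CCAAT, with 82.3% G and C, whereas the CPT1A window held neither motif. CCAAT occurred in 34.6% and GGGCGG in 45.0% of 35116 windows of this length. Neither the E-box CACGTG nor the sterol element TCACNCCAC was found in these 4 windows, against 7.26% and 1.13% of all windows. No base lay in matches of different motifs, but 2 of the 6 GC box matches of ACSL1 overlap by 1 base. These are letter matches and show no binding. Of the listed starts, number 2 is shown for FADS2 and number 1 for ACSL1, by no stated rule, and windows at other annotated starts are not shown. The other FADS2 window held none of the 4 motifs, and of 4 other ACSL1 windows 1 held a single CCAAT, GC box and sterol element match and 3 held none. The deposited values do not tell which start was used.

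With KLF11 siRNA, 5 of the 10 genes rose and 1 fell, while 4 did not pass the test. SCD, FADS2, ACSL3, ACSL4 and CPT1A were higher and ACSL1 was lower. Over all 15320 genes tested 35.2% passed, 13.5% as higher (2071 genes) and 21.7% as lower (3329 genes). Median-of-ratios scaling, which moved the median of all genes by 0.10, gave 2728 higher and 2664 lower genes and the same calls for these 10. Their median log2 change was 0.30, against -0.11 for all tested genes. For 8 of the 10 genes, 7 of them higher, the control libraries lay wholly to 1 side of the others, against 73.4% of all tested genes (28.9% higher and 44.5% lower). Without control siRNA replicate 1 or 2, the test called 0 of these 10 genes, 0 genes of any list below, and 15 higher and 4 lower or 9 higher and 2 lower genes in the whole table. Each call given here thus rests on both control libraries, since with 1 of them the fit takes its spread from the KLF11 siRNA pair alone. The signs of the 6 changes were kept in all 14 alternatives.

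**Figure D1:**
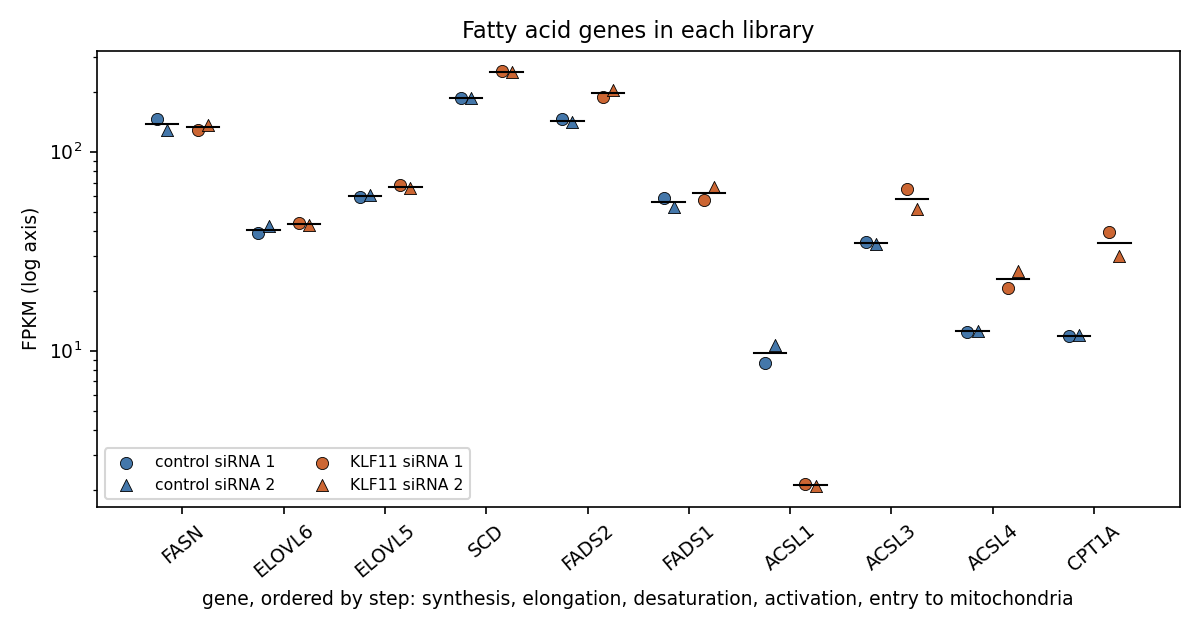
FPKM of each gene (log axis) in the control siRNA (blue) and KLF11 siRNA (orange) libraries, circles for replicate 1, triangles for replicate 2 and bars for group means. ACSL1 sits near 2 FPKM in both KLF11 siRNA libraries, and FASN and FADS1 overlap between the groups.

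The synthesis and elongation genes differed little. FASN was at 147 and 129 FPKM with control siRNA and 128 and 137 FPKM with KLF11 siRNA. Its groups overlapped, with a log2 change of -0.05 (SE 0.0992, adjusted p = 0.709), with a positive sign under median-of-ratios scaling and without control siRNA replicate 1. ELOVL6, which extends palmitate to stearate, was at 39.0 and 42.2 FPKM against 43.8 and 42.9 FPKM (log2 change 0.09, adjusted p = 0.443). ELOVL5, which extends polyunsaturated fatty acids, was at 59.4 and 60.4 FPKM against 68.1 and 65.4 FPKM (log2 change 0.15, SE 0.0802, adjusted p = 0.194). Both KLF11 siRNA libraries lay above both controls for the elongases, by a margin that the test did not separate from the replicate spread.

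SCD, the delta-9 desaturase that makes oleate and palmitoleate, was the most abundant of the 10 genes in every library. It was at 186 and 186 FPKM with control siRNA and 253 and 252 FPKM with KLF11 siRNA. Replicates nearly coincided, at 186 ± 0.24 and 253 ± 0.417 FPKM (SD, n = 2 each), and the level was 1.36-fold higher (log2 change 0.44, SE 0.0763, adjusted p = 0.0131, limma). A processed copy that could share its reads, SCDP1, did not exceed 0.19 FPKM.

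FADS2, the delta-6 desaturase at the head of the polyunsaturated pathway, rose by a similar amount. It went from 145 and 141 FPKM to 189 and 203 FPKM, a level 1.37-fold higher (log2 change 0.45, SE 0.0832, adjusted p = 0.0151). FADS1, the delta-5 desaturase that acts after it, was at 58.6 and 53.0 FPKM against 57.1 and 66.5 FPKM (log2 change 0.14, SE 0.112, adjusted p = 0.365), and its groups overlapped. The ratio of FADS2 to FADS1 was 2.48 and 2.67 in control and 3.32 and 3.06 in KLF11 siRNA libraries. These ratios do not overlap, but 2 against 2 libraries cannot give an exact two-sided permutation p below 0.33. FADS1 and FADS2 overlap each other in RefSeq, so without the strand setting some reads could not be told apart.

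The related desaturases differed from SCD and FADS2. SCD5, the other delta-9 desaturase of human cells, fell from 19.8 and 20.6 FPKM to 4.12 and 7.14 FPKM (3.58-fold lower, adjusted p = 0.0076). The ratio of SCD to SCD5 was 9.42 and 9.03 in control and 61.4 and 35.4 in KLF11 siRNA libraries. FADS3 was at 10.0 and 5.91 FPKM against 6.03 and 5.85 FPKM and did not pass (adjusted p = 0.329). SCD made up 44.3% and 45.7% of the summed FPKM of these 5 desaturases in control and 49.7% and 47.2% in KLF11 siRNA libraries, and SCD5 went from 4.70% and 5.06% to 0.808% and 1.33%.

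**Figure D2:**
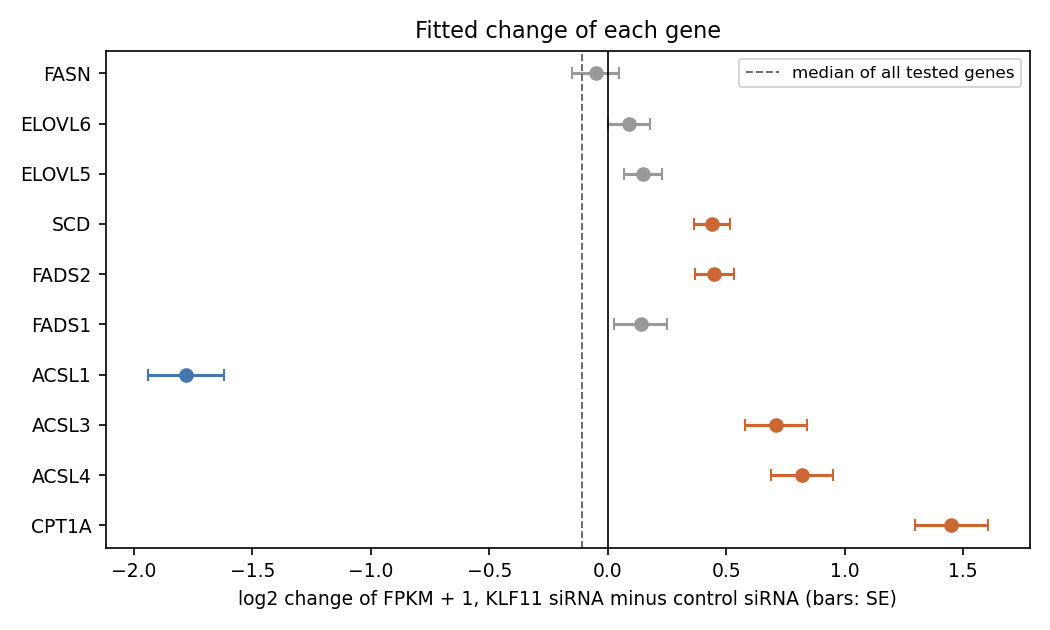
Fitted log2 change of FPKM + 1 for each gene, KLF11 siRNA minus control siRNA, with SE as bars, orange for higher, blue for lower and grey for not called. ACSL1, at -1.78, is the gene called lower, and CPT1A is highest at 1.45.

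The acyl-CoA synthetases split. ACSL1, which activates fatty acids for both storage and oxidation in liver and fat, was at 8.70 and 10.7 FPKM with control siRNA and 2.13 and 2.09 FPKM with KLF11 siRNA. It was 4.60-fold lower (log2 change -1.78, SE 0.16, adjusted p = 0.00364), with no overlap of the groups. ACSL3, found on the endoplasmic reticulum and on lipid droplets, went from 35.3 and 34.5 FPKM to 64.9 and 51.4 FPKM, a level 1.67-fold higher (log2 change 0.71, SE 0.131, adjusted p = 0.0151). ACSL4, which prefers arachidonate and is known for its part in ferroptosis, went from 12.5 and 12.6 FPKM to 20.6 and 25.3 FPKM, a level 1.83-fold higher (log2 change 0.82, SE 0.130, adjusted p = 0.0108). For ACSL3 replicate 1 was the higher of the KLF11 siRNA libraries, and for ACSL4 it was replicate 2.

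Within this family ACSL1 supplied 15.4% and 18.5% of the summed FPKM with control siRNA and 2.40% and 2.63% in KLF11 siRNA libraries. ACSL3 held the largest share in every library, from 59.5% to 73.2%. The family sum was 56.7 and 58.0 FPKM with control siRNA and 88.6 and 79.6 FPKM with KLF11 siRNA. ACSL5 and ACSL6 stayed under the filter, with ACSL5 at 0.07 FPKM in each control library and 0.68 and 0.77 FPKM with KLF11 siRNA. ACSL4 thus went from 1.43 and 1.17 times the level of ACSL1 to 9.65 and 12.1 times.

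CPT1A, the liver-type enzyme that commits fatty acids to mitochondrial oxidation, rose most. It was at 11.8 and 12.0 FPKM with control siRNA and 39.6 and 29.8 FPKM with KLF11 siRNA (2.91-fold higher, log2 change 1.45, SE 0.154, adjusted p = 0.00491). The KLF11 siRNA libraries differed from each other, at 34.7 ± 6.92 FPKM (SD, n = 2), by less than the gap to the controls. Its relatives moved down or did not pass. CPT1B, the muscle-type isoform, fell from 36.5 and 30.9 FPKM to 13.9 and 17.7 FPKM (2.13-fold lower, log2 change -1.05, adjusted p = 0.00861). CPT1C, the brain-type isoform, was at 15.5 and 11.7 FPKM against 2.94 and 9.14 FPKM (adjusted p = 0.0938).

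The order of the isoforms turned over. CPT1A held 18.5% and 22.0% of the summed CPT1 FPKM with control siRNA and 70.1% and 52.6% in KLF11 siRNA libraries, and CPT1B went from 57.2% and 56.6% to 24.7% and 31.2%. The family sums overlapped, at 63.8 and 54.7 FPKM with control siRNA and 56.5 and 56.6 FPKM with KLF11 siRNA. This family was put together after its values had been seen. CHKB, which neighbours CPT1B and shares a read-through transcript with it, also fell, from 38.2 and 35.9 FPKM to 20.8 and 28.0 FPKM (adjusted p = 0.0361). The read-through entry CHKB-CPT1B was at 3.05 and 4.09 FPKM against 4.06 and 3.42 FPKM, so part of the CPT1B level may be split among these entries.

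**Figure D3:**
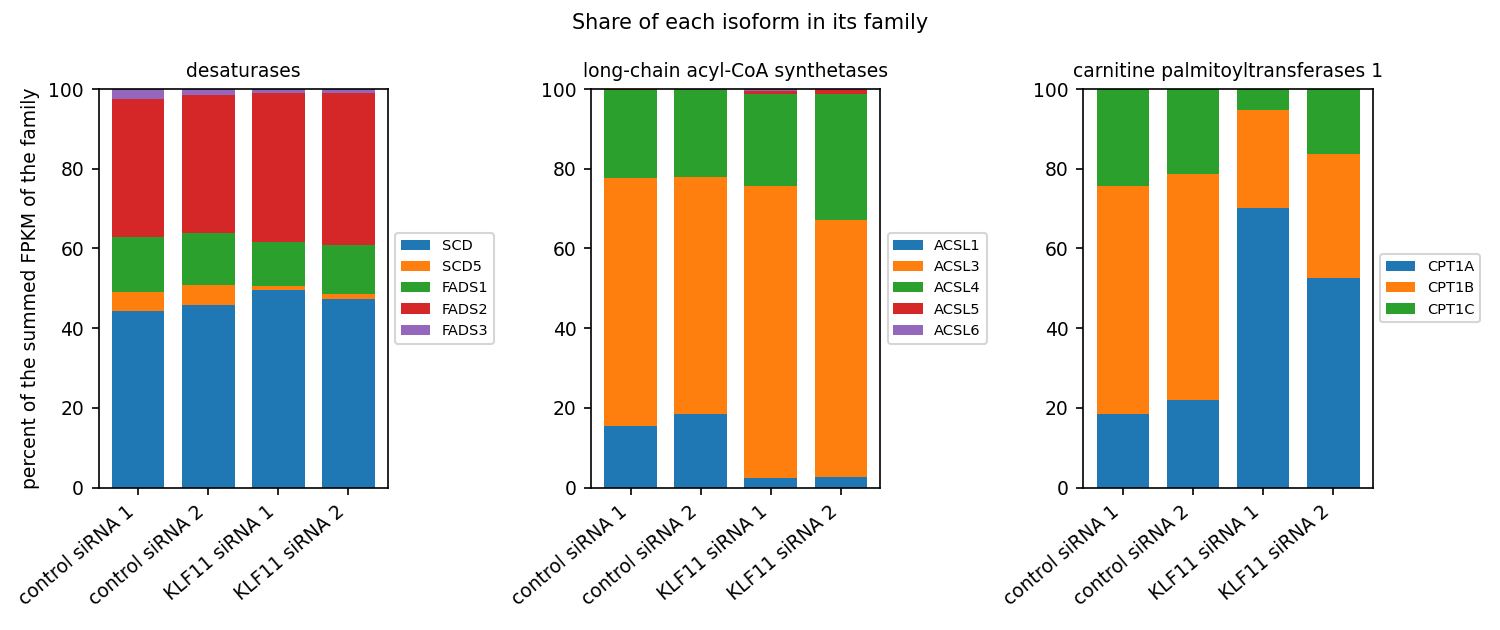
Percent of the summed FPKM of 3 enzyme families (vertical axis, 0 to 100) held by each isoform in each of the 4 libraries. CPT1A goes from 18.5% and 22.0% to 70.1% and 52.6% of its family, and ACSL1 from 15.4% and 18.5% to under 3% of its own.

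FPKM are per length, so levels can be ranked within a library. In control libraries the means ran from SCD at 186 FPKM through FADS2 at 143, FASN at 138, ELOVL5 at 59.9, FADS1 at 55.8, ELOVL6 at 40.6, ACSL3 at 34.9, ACSL4 at 12.5 and CPT1A at 11.9 to ACSL1 at 9.71 FPKM. Only the neighbours FADS2 and FASN overlapped in that order. With KLF11 siRNA ACSL3, at 58.1 FPKM, passed ELOVL6, at 43.4 FPKM, and overlapped FADS1, which also overlapped ELOVL5. CPT1A, at 34.7 FPKM, passed ACSL4, at 22.9 FPKM.

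The KLF11 siRNA libraries were not equally far from the controls. KLF11 itself was lower in replicate 1. On the log2 scale 79.1% of the 5400 called genes lay farther from the control mean in that replicate, against 66.9% of all tested genes. Of the 6 called fatty acid genes 3 did so, with CPT1A at 1.65 against 1.25 and ACSL3 at 0.88 against 0.54, while SCD was at 0.44 in each. The other 3 lay farther in replicate 2, with ACSL4 at 0.67 and 0.96, FADS2 at 0.40 and 0.50 and ACSL1 at -1.77 and -1.79.

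Around these genes, most of fatty acid metabolism that changed went down. In 10 lists that leave out the genes above, 8 of 138 tested genes rose (5.80%) and 53 fell (38.4%), against 13.5% and 21.7% of all tested genes, with a median log2 change of -0.34. Another 26 listed genes were under the filter, and ACACA was not analysed here. The filter takes the mean of all 4 libraries, so genes averaging under 1 FPKM with KLF11 siRNA could pass through their control level alone. Among the genes counted as lower, HACD4, FADS6, ACSM3, SLC27A2, SLC27A6, SLC22A5, DGAT2 and MLXIPL were of this kind. Of the markers given above, 5 of 10 endoderm, 7 of 9 epithelial and 3 of 4 tested hepatocyte and yolk sac genes were lower in the same libraries. Within these lists 2 endoderm genes and AFP were higher. Among these marker calls HNF4A and CLDN3 passed the filter through their control level alone, and AFP through its KLF11 siRNA level alone. The part of these markers in the falls was not tested.

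**Figure D4:**
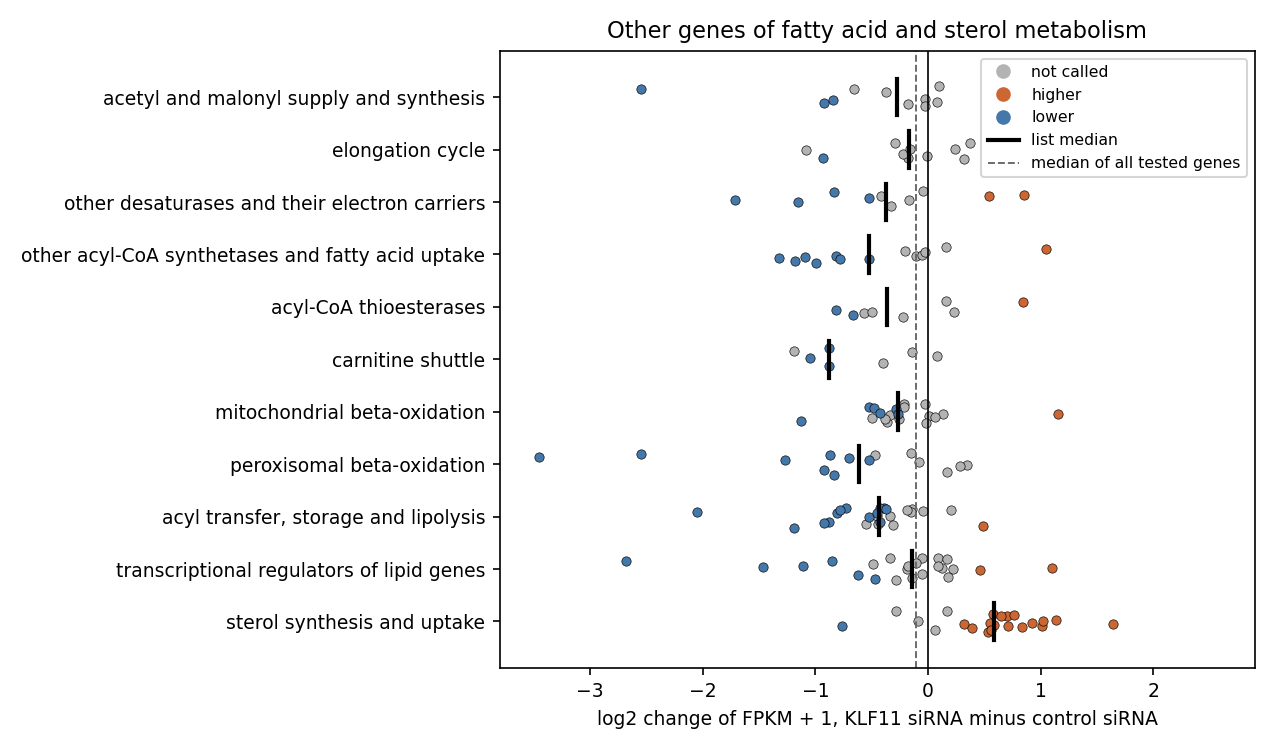
Fitted log2 change of FPKM + 1 (horizontal axis) for each tested gene of 11 lists, coloured by call, with list medians as thick bars and the median of all tested genes as a dashed line. The sterol median lies to the right of 0, with 17 of 22 genes higher, and the peroxisomal list reaches farthest to the left, with EHHADH at -3.45.

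Peroxisomal beta-oxidation, which shortens very long and branched chains, had 8 of 14 tested genes lower (57.1%, against 21.7% of all tested genes) and 0 higher. Its median log2 change was -0.61. EHHADH, a bifunctional enzyme of this pathway, fell from 26.1 and 24.5 FPKM to 1.27 and 1.57 FPKM (17.8-fold lower, log2 change -3.45, adjusted p = 0.00104). HSD17B4, its more abundant counterpart, fell from 250.4 and 264 FPKM to 131 and 151 FPKM, PHYH, which starts phytanate breakdown, from 18.2 and 20.1 FPKM to 8.93 and 10.4 FPKM, and SCP2, a thiolase and lipid carrier, from 42.9 and 45.5 FPKM to 30.4 and 30.6 FPKM. ACOX2 and ACOX3, singled out after their values were seen, also fell, ACOX3 from 78.9 and 77.7 FPKM to 6.96 and 22.1 FPKM. Under median-of-ratios or quantile scaling 2 genes of this list were higher and 8 lower.

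The carnitine shuttle beyond CPT1A had 3 of 7 tested genes lower (42.9%, against 21.7% of all tested genes) and 0 higher. These were CPT1B, the carnitine acetyltransferase CRAT, from 13.0 and 11.0 FPKM to 6.01 and 6.02 FPKM (adjusted p = 0.00953), and the carnitine importer SLC22A5, from 2.15 and 3.17 FPKM to 0.96 and 0.98 FPKM (adjusted p = 0.0316). SLC22A5 passed the filter through its control level alone. The steps that follow CPT1A did not pass. CPT2, on the inner mitochondrial membrane, was at 9.80 and 8.33 FPKM against 9.90 and 9.35 FPKM, and the carnitine carrier SLC25A20 at 6.44 and 7.12 FPKM against 6.70 and 5.45 FPKM.

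Mitochondrial beta-oxidation had 6 of 19 tested genes lower (31.6%, against 21.7% of all tested genes), 1 higher and a median log2 change of -0.27. ETFA, an electron transfer flavoprotein subunit, fell from 118 and 112 FPKM to 80.8 and 83.0 FPKM, DECR1, needed for unsaturated chains, from 34.2 and 33.0 FPKM to 23.4 and 23.0 FPKM, and ACADS, the short-chain dehydrogenase, from 8.41 and 6.66 FPKM to 2.43 and 3.36 FPKM. ACADSB, which acts on branched short chains, rose from 6.38 and 7.77 FPKM to 16.6 and 17.0 FPKM (adjusted p = 0.00546). The count of lower genes ranged from 2 with no filter to 9 with scaling to TPM.

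Supply of acetyl and malonyl groups had 3 of 10 tested genes lower (30.0%, against 21.7% of all tested genes) and 0 higher. MLYCD, which breaks down malonyl-CoA, the inhibitor of CPT1, fell from 40.5 and 40.6 FPKM to 4.78 and 7.75 FPKM (6.47-fold lower, adjusted p = 0.00324). MID1IP1, which activates acetyl-CoA carboxylase, went from 160.4 and 152 FPKM to 82.4 and 81.1 FPKM, and OXSM, of mitochondrial fatty acid synthesis, from 3.69 and 3.16 FPKM to 1.08 and 1.91 FPKM. The OXSM call (adjusted p = 0.0404) was lost with no filter, with quantile normalization and without KLF11 siRNA replicate 1. SLC25A1, the mitochondrial citrate carrier, did not pass (adjusted p = 0.0735), and neither did ACLY, which makes cytosolic acetyl-CoA, at 121 and 114 FPKM against 121 and 131 FPKM.

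In the elongation cycle 1 of 10 tested genes was lower (10.0%, against 21.7% of all tested genes) and 0 were higher. It was the dehydratase HACD4, from 2.04 and 2.28 FPKM to 0.43 and 0.93 FPKM (adjusted p = 0.0329). HACD4 averaged 0.68 FPKM with KLF11 siRNA, so its control level alone carried it past the filter. HACD3 did not pass, at 102 and 109 FPKM against 88.0 and 84.2 FPKM (adjusted p = 0.05004), nor did ELOVL1, at 19.7 and 18.6 FPKM against 24.5 and 23.7 FPKM. ELOVL2, which extends polyunsaturated chains, was at 13.8 and 15.9 FPKM with control siRNA and 3.52 and 11.5 FPKM with KLF11 siRNA (adjusted p = 0.130). Replicate 1 with KLF11 siRNA lay far below the rest. HSD17B12, the ketoacyl reductase of the cycle (adjusted p = 0.124), ELOVL4 and ELOVL7 did not pass either.

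Of other desaturases and their electron carriers 2 of 10 tested genes rose and 4 fell. CYB5B, a cytochrome b5 of the outer mitochondrial membrane, and DEGS1, the ceramide desaturase, were the rises, DEGS1 from 17.2 and 20.6 FPKM to 39.3 and 30.9 FPKM. SCD5, FADS6, CYB5R2 and CYB5A, the cytochrome b5 that feeds electrons to the desaturases, were the falls, CYB5A from 34.01 and 34.02 FPKM to 22.0 and 25.0 FPKM (adjusted p = 0.0177). FADS6 averaged 0.47 FPKM with KLF11 siRNA, so its control level alone carried it past the filter.

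Among other synthetases and uptake genes 7 of 13 tested genes fell (53.8%, against 21.7% of all tested genes) and 1 rose. Of the falls ACSM3, SLC27A2 and SLC27A6 averaged 0.47, 0.595 and 0.685 FPKM with KLF11 siRNA. Their control level alone carried them past the filter, so they could enter the count only as falls. With a filter of mean FPKM 5 the list had 4 lower genes. ACSF2, a mitochondrial medium-chain synthetase, fell from 13.6 and 15.6 FPKM to 5.01 and 5.46 FPKM, SLC27A3, a fatty acid transport protein, from 27.5 and 28.5 FPKM to 10.0 and 13.8 FPKM, and DBI, an acyl-CoA binding protein, from 217 and 196 FPKM to 140 and 148 FPKM. FABP5, an intracellular fatty acid binding protein, rose from 87.5 and 104 FPKM to 218 and 182 FPKM (adjusted p = 0.00646). FABP1 and FABP4, singled out after their values were seen, were listed at 0 in every library. Of the thioesterases, which undo activation, ACOT7 rose from 43.4 and 37.1 FPKM to 75.6 and 70.2 FPKM. ACOT13 and ACOT8 fell (25.0% of the tested thioesterases, against 21.7% of all tested genes). The other 5 of 8 tested genes did not pass, among them ACOT2 (adjusted p = 0.0603).

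Genes that esterify, store and release fatty acids had 13 of 24 tested members lower (54.2%, against 21.7% of all tested genes) and 1 higher. Their median log2 change was -0.44. DGAT2, which completes triglyceride synthesis, fell from 6.74 and 6.31 FPKM to 0.54 and 1.15 FPKM (7.72-fold lower, adjusted p = 0.00497), and DGAT1 from 18.7 and 17.5 FPKM to 10.1 and 9.67 FPKM. With KLF11 siRNA DGAT2 averaged 0.845 FPKM, so its control level alone carried it past the filter. LPCAT4, a lysophospholipid acyltransferase, and PLIN2, a lipid droplet coat protein, fell too, PLIN2 from 25.4 and 26.3 FPKM to 16.3 and 13.1 FPKM. AGPAT5 was the gene that rose, from 20.6 and 20.5 FPKM to 31.9 and 26.9 FPKM.

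Sterol synthesis and uptake genes, which share SREBP control with SCD and FADS2, were the exception. Of 22 tested genes 17 rose (77.3%, against 13.5% of all tested genes) and 1 fell, with a median log2 change of 0.59. IDI1 rose from 43.3 and 48.7 FPKM to 111 and 94.1 FPKM, HMGCS1 from 115 and 126 FPKM to 264 and 226 FPKM, SC5D from 38.2 and 44.7 FPKM to 156 and 109 FPKM, and FDFT1, the squalene synthase, from 199 and 189 FPKM to 322 and 311 FPKM. TM7SF2, a sterol reductase, was the fall, from 72.2 and 63.9 FPKM to 37.7 and 41.7 FPKM. FASN, FADS1 and ELOVL6, counted among SREBP targets as well, did not pass, as given above.

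Of the regulators 2 of 23 tested genes rose (8.7%, against 13.5% of all tested genes) and 6 fell (26.1%, against 21.7%). INSIG1, a target of SREBP that holds its precursor in the endoplasmic reticulum, rose from 11.8 and 12.6 FPKM to 28.3 and 26.3 FPKM, a level 2.24-fold higher (adjusted p = 0.00392), and PRKAG1, an AMP kinase subunit, was the other rise. SREBF1 was at 22.7 and 18.4 FPKM against 23.1 and 24.8 FPKM (adjusted p = 0.243) and SREBF2 at 77.3 and 73.8 FPKM against 77.2 and 84.2 FPKM (adjusted p = 0.449), so the messages of the SREBP factors themselves did not pass.

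MLXIPL, the carbohydrate-responsive factor ChREBP, fell from 14.1 and 8.89 FPKM to 0.49 and 1.44 FPKM. It averaged 0.965 FPKM with KLF11 siRNA and passed the filter through its control level alone. PPARA fell from 5.04 and 5.74 FPKM to 1.06 and 1.61 FPKM (4.04-fold lower, adjusted p = 0.00722), NR1H3, the liver X receptor alpha, from 14.4 and 13.3 FPKM to 4.66 and 7.26 FPKM, and its partner RXRA from 23.0 and 20.6 FPKM to 14.2 and 13.5 FPKM. NR1H2 fell by 0.47 on the log2 scale (adjusted p = 0.0297), which missed the threshold under median-of-ratios scaling and with no filter. With no filter the calls of NR1H3 and of PRKAB2, another regulator called lower, were lost too. PPARD did not pass (adjusted p = 0.7995).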

How the data were processed

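Polyadenylated RNA of 4 libraries was measured, 2 with control siRNA and 2 with KLF11 siRNA, grouped by sample title, and columns were matched by name, leaving 0 unmatched. The authors deposited FPKM values with 2 decimals for 57905 identifiers. RSEM 1.3.1, Trim Galore 0.5.0 and the build hg19 (GRCh37) are named, per the submitters' processing notes. Not given in the sources used here are the aligner, annotation release, strand setting and filters. RSEM divides reads among transcripts they match, so copies and overlapping genes are uncertain.

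The 15320 genes whose FPKM averaged at least 1 were tested with limma 3.58.1 (R 4.3.3, eBayes with a trend) on log2(FPKM + 1), 2 groups with no block, two-sided, Benjamini-Hochberg adjusted over all tested genes, threshold 0.05. Fold changes are ratios of mean FPKM; log2 changes are on the log2(FPKM + 1) scale, which understates changes of low genes. Log2 values correlated across genes at 0.982 within the control pair, 0.976 within the KLF11 siRNA pair and 0.894 to 0.930 across groups.

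The 10 genes and all lists were chosen with earlier results of these data known. Named by rule were KLF11, the 10 genes, up to 4 members of each list with the smallest p, called members behind counts of 5 or fewer, and enzymes and regulators next to the 10 genes. Simulated data for this comparison, 2 libraries each with 15320 genes of which 200 changed, gave 63.2% recovery at a log2 change of 1, 91.6% at 2 and 11.7% false calls. The false share was above what the threshold of 0.05 aims at. The data called 5400 genes, far more than 200, and the simulation gave both groups the same spread. These rates therefore need not hold for the data. The 14 alternatives covered pseudocounts 0.1 and 5, filters, scalings, eBayes options (statmod 1.5.0), the replicate block and each library left out. Of the 10 identifiers, 10 carry the same symbol in a current Ensembl name table. Promoter sequences are from RefSeq. Figures used matplotlib 3.10.9.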

Additional observations from a re-analysis of the deposited data

How the results depend on the processing

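Over the 10 alternatives that kept every library, 97 of 100 tests of the 10 genes kept their direction and their side of the threshold. The exceptions were FADS2 (log2 change 0.45, adjusted p = 0.0519) and ACSL3 (0.71, adjusted p = 0.0629) with no filter, and FASN, whose sign turned under median-of-ratios scaling (0.07, not called). Median-of-ratios scaling moved the median log2 change of all genes by 0.10 and quantile normalization by 0.12, with 2728 genes higher and 2664 lower or 2657 and 2664, against 2071 and 3329. With no filter 34232 genes were tested, of which 887 were higher and 1251 lower. Of the 10 genes 3 were then higher. The lower counts of the lists were then 0 for the elongation cycle and for thioesterases, 1 for other desaturases, 2 for synthetases and uptake and for mitochondrial beta-oxidation, 3 for storage and for regulators, and 4 for peroxisomal beta-oxidation, and 11 sterol genes were higher. A filter of mean FPKM 5 tested fewer genes and gave 4 lower genes for synthetases and uptake. Elongation had 2 lower genes with pseudocount 5, with TPM scaling and with robust eBayes. Without a trend thioesterases had 4 and mitochondrial beta-oxidation 3 lower genes, and the latter had 3 with median-of-ratios scaling. For the other genes tested by name, 554 such tests kept their side of the threshold, 53 lost a call and 4 gained one. Unless given, the cause was not tested.

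The labels do not say that the replicate numbers pair the libraries, and the deviations of same-numbered libraries correlated at -0.07 across genes. With the replicate number as a block 1707 genes were higher and 2644 lower, and no call of the 10 genes changed. Lower genes of the lists went from 6 to 3 for mitochondrial beta-oxidation, 3 to 2 for acetyl and malonyl supply (OXSM lost), 4 to 3 for other desaturases, 7 to 5 for synthetases and uptake, 13 to 10 for storage and 6 to 5 for regulators. Higher genes went from 2 to 1 for regulators and 17 to 15 for sterol genes.

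With 1 library left out, the lone library of its group is assumed to vary like the other group. Genes higher ranged from 9 to 2325 and genes lower from 2 to 3943. Of the 10 genes 0 to 5 were higher and 0 to 1 lower. Lower genes ranged from 0 to 5 for acetyl and malonyl supply, 0 to 2 for elongation, 0 to 4 for other desaturases, 0 to 6 for synthetases and uptake, 0 to 2 for thioesterases, 0 to 3 for the carnitine shuttle, 0 to 5 for mitochondrial and 0 to 8 for peroxisomal beta-oxidation, 0 to 14 for storage and 0 to 7 for regulators, and 0 to 16 sterol genes were higher. The log2 change ranged from 0.44 to 0.44 for SCD, 0.40 to 0.50 for FADS2, 0.54 to 0.88 for ACSL3, 0.67 to 0.96 for ACSL4, 1.25 to 1.65 for CPT1A, -1.91 to -1.64 for ACSL1 and -0.15 to 0.04 for FASN. The depth behind each FPKM is unknown, so no counting error can be given.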
